A study of Mus musculus and Homo sapiens with 34 samples.

Results

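The genes described here are the 3 secretoglobins Scgb1a1, Scgb3a1 and Scgb3a2 and the cytochrome P450 gene Cyp2f2, which in the mouse lung are best known as products of club cells. They were found by gene name in all 7 count tables of the series (SCGB1A1, SCGB3A1 and SCGB3A2 in the human tables), and they are 4 of the 21401 genes listed in the mouse tables. Scgb1a1 had a row in each of the 4 mouse tables, Scgb3a2 and Cyp2f2 in 3 and Scgb3a1 in 2. In the human tables SCGB3A2 had a row in 2 of 3, and SCGB1A1 and SCGB3A1 had none.

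Club cells are the secretory cells of the bronchioles. Secretoglobins are small secreted proteins that pair through disulfide bonds, and Scgb1a1, also known as club cell secretory protein, is the most abundant of them in airway fluid, where it is known for damping inflammation. Scgb3a1 and Scgb3a2 are related airway proteins, Scgb3a2 being a target of the lung transcription factor Nkx2-1. Cyp2f2 is the mouse lung enzyme that turns naphthalene into a reactive epoxide, which is why naphthalene kills club cells.

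All mouse cultures are labelled as lung organoids (3154, 1027B) or a lung cell line (3311) and carried p53frt and Rosa-FSF-CreERT2, that is, an FRT-flanked p53 allele and a tamoxifen-activated Cre that needs Flp recombinase to become active. The 3154 organoids also carried Hnf4aflox, so that 4-hydroxytamoxifen (4OHT) removes Hnf4a, a transcription factor of gut and liver identity. They had received ethanol or 4OHT (2 mM as labelled) for 2 days and were sampled 2 weeks later. In a second experiment 3154 organoids had received ethanol or 4OHT, each with vehicle or with 3 nM MRTX1133, a small-molecule inhibitor, for 48 hours. In that experiment the labels' protocol gives 48 hours without separating the times of the 2 agents, and states no dose of 4OHT. The 1027B organoids and the 3311 cell line carried Foxa1flox and Foxa2flox in place of Hnf4aflox, and no agent that would delete these is named for the libraries used. The 1027B organoids were given vehicle, 10 nM trametinib (a MEK inhibitor) or 20 nM MRTX1133 for 48 hours. The 3311 cells were compared with and without 50 nM trametinib over the same time. So were the human lung adenocarcinoma lines H358 and H1651, at 20 nM. A further H1651 culture carried a lentiviral HNF4A construct that doxycycline switches on, and was grown for 7 days with the drug at 1 µg/mL or without it. Each culture is a single line, each of the 17 groups has 2 libraries, and nothing says whether the 2 came from separate cultures, so p values measure the spread between these libraries, which may be technical.

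The 34 libraries held between 19692517 and 45284286 counts. Values below are CPM, a library's counts scaled by TMM within its table to a common total. Genes are said to be called where edgeR's quasi-likelihood p was under 0.05 after Benjamini-Hochberg adjustment over all genes tested in the table. Hnf4a, the gene targeted in 3154, was 371 ± 79.6 CPM in ethanol and 60.7 ± 10.2 CPM after 4OHT at 2 weeks (SD, n = 2), and 225 ± 6.6 against 49.9 ± 0.677 CPM in the 48-hour vehicle arms. The lung factor Nkx2-1 was present in every mouse group, from 189 ± 18.5 CPM in 3311 with trametinib to 422 ± 12.9 CPM in 1027B with trametinib (SD, n = 2). The mean of the ciliated cell factor Foxj1 was at or below 0.49 CPM in every mouse group where it had a row.

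In the GENCODE annotation of GRCm38, Scgb1a1 lies on chromosome 19 from 9083636 to 9087958 on the minus strand, with 476 bases of merged exons. Scgb3a1 lies on chromosome 11 from 49663610 to 49665118 on the plus strand, with 598 exonic bases. Cyp2f2 lies on chromosome 7 from 27119909 to 27133660 on the plus strand, with 2025 exonic bases, of which 274 are also exonic in the antisense gene Gm15883. How the authors' counting used the strand is not given in the sources used here, so reads in those bases cannot be assigned with certainty.

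RefSeq promoter windows of GRCm38.p6 (250 bases before to 50 after the annotated start) were at hand for Cyp2f2 and Scgb3a1, which are shown because both genes rose with trametinib in 1027B. They are printed from 5′ to 3′ on the gene's strand, and capitals mark letters of the searched motifs that were found. The first is chr7:27119705-27120004 and the second chr11:49663345-49663644.
Cyp2f2: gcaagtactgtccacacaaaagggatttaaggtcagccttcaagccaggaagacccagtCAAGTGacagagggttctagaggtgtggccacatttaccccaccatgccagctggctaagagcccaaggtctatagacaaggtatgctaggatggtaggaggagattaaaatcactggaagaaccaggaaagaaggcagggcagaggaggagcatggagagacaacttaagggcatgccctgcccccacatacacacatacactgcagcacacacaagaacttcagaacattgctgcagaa
Scgb3a1: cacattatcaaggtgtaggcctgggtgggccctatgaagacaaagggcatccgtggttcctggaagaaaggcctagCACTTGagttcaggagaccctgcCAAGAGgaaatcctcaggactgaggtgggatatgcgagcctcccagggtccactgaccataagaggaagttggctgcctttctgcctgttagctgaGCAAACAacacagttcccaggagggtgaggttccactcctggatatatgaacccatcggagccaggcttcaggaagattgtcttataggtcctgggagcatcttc

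Both windows held the letters CAAGTG, a core of the sites bound by Nkx2-1, at -191 on the gene's strand in Cyp2f2 and at -174 on the other strand in Scgb3a1, counted from the annotated start. These letters occur on either strand in 13.6% of all 32851 promoter windows in the table. The Scgb3a1 window also held CAAGAG, a second form of that core found in 18.3% of windows, at -151, and TGTTTGC, a form of the core bound by forkhead factors such as Foxa1 and Foxa2 found in 5.07% of windows, at -55 on the other strand. The further motifs searched on both strands were TGTTTAC (3.65% of windows), TTGCNNAA for C/EBP factors (10.8%), CAAAGTCC for Hnf4a (1.42%), TGANTCA for AP-1 (7.81%), CCGGAAG for ETS factors (8.86%) and TATAAA (13.6%). None of these letters stood in either window, and a match or its absence is a description of the letters only.

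**Figure D1:**
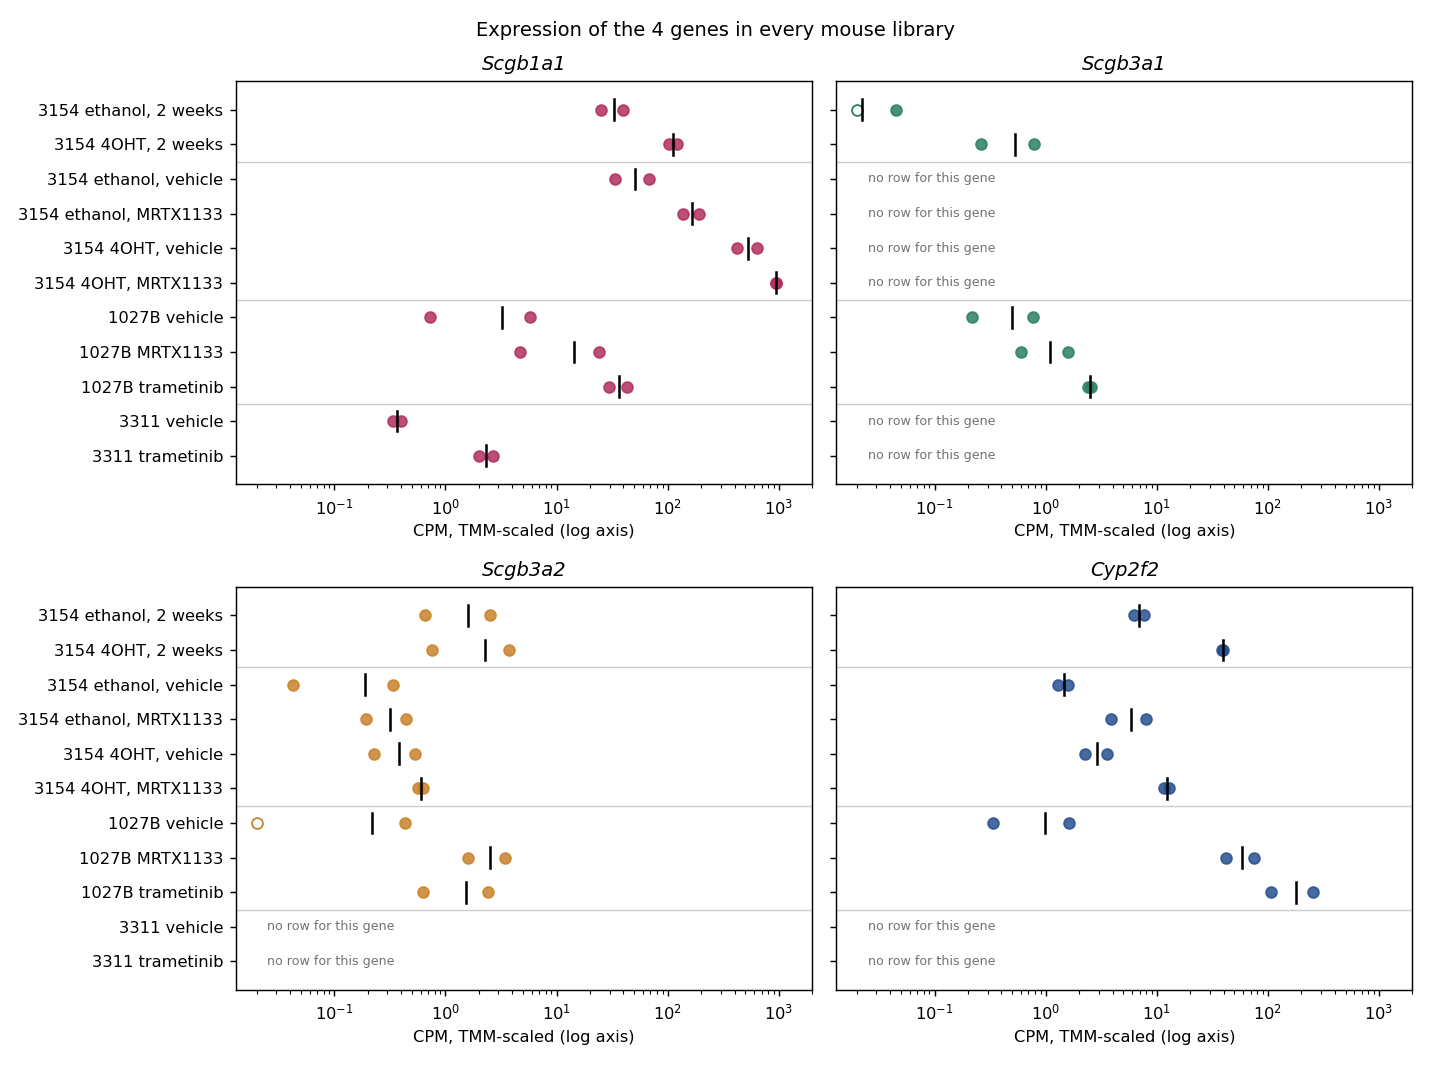
TMM-scaled CPM (log axis) of the 4 genes in the 22 mouse libraries, with filled points for libraries, black bars for group means of 2 libraries, and open points at the left edge for libraries with 0 counts. Scgb1a1 reaches 936 and 953 CPM in 3154 organoids with 4OHT and MRTX1133, and Cyp2f2 reaches 106 and 252 CPM in 1027B organoids with trametinib.

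The 4 genes differed widely in level, and the 4 mouse tables were scaled separately, so the order of groups across tables is a description. Scgb1a1 had the highest level of the 4, with a mean of 945 ± 11.6 CPM in 3154 organoids given 4OHT and MRTX1133, and its lowest was 0.366 ± 0.0452 CPM in untreated 3311 cells (SD, n = 2). The 4 groups of the 48-hour 3154 table kept separate ranges for Scgb1a1, in the order ethanol with vehicle, ethanol with MRTX1133, 4OHT with vehicle and 4OHT with MRTX1133. Cyp2f2 was highest in 1027B with trametinib at 179 ± 103 CPM and lowest in untreated 1027B at 0.982 ± 0.909 CPM (SD, n = 2), so that both ends of its range were in the same organoid line.

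Scgb3a1 and Scgb3a2 were low throughout. Scgb3a2 lies on chromosome 18 from 43764289 to 43767399 on the plus strand (GRCm38), with 880 exonic bases. The highest mean of Scgb3a1 was 2.5 ± 0.111 CPM, in 1027B with trametinib, and that of Scgb3a2 was 2.52 ± 1.3 CPM, in 1027B with MRTX1133 (SD, n = 2). In the order of Scgb3a2 means, neighbouring groups overlapped, except that 48-hour 3154 organoids with 4OHT and MRTX1133 lay above those with 4OHT and vehicle.

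Per kilobase of exon, the levels of different genes can be set side by side. In untreated 1027B organoids Scgb1a1 stood at 6.79 CPM per kb and Cyp2f2 at 0.485, and with trametinib at 76.7 and 88.5 CPM per kb. In 3154 organoids given 4OHT and MRTX1133 Scgb1a1 stood at 1984 CPM per kb and Cyp2f2 at 6.06. In the 2-week 3154 groups Scgb1a1 stood at 68.4 CPM per kb with ethanol and 234 after 4OHT, and Cyp2f2 at 3.43 and 19.3. Scgb1a1 was thus above Cyp2f2 in each of these groups but 1027B with trametinib, where the ranges of both genes overlapped.

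Against a matching control, the 4 genes gave 27 values in 9 mouse comparisons, of which 12 were called higher and none lower by edgeR, and the other 15 had a positive log2 fold change without being called. The share of all genes called higher in these 9 comparisons ran from 0.317% to 21%, and is given below beside each of them. Several of these comparisons share control libraries, so the values are not independent of each other. Some of the values belong to genes whose control counts alone would not have passed the count filter. Such genes were tested because treated libraries were higher, so a lower call was hardly possible for them. The tally of higher and lower calls is therefore partly fixed in advance and is a description. In bulk RNA, more cells of a type and more RNA per cell cannot be told apart, which holds for every change given here.

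**Figure D2:**
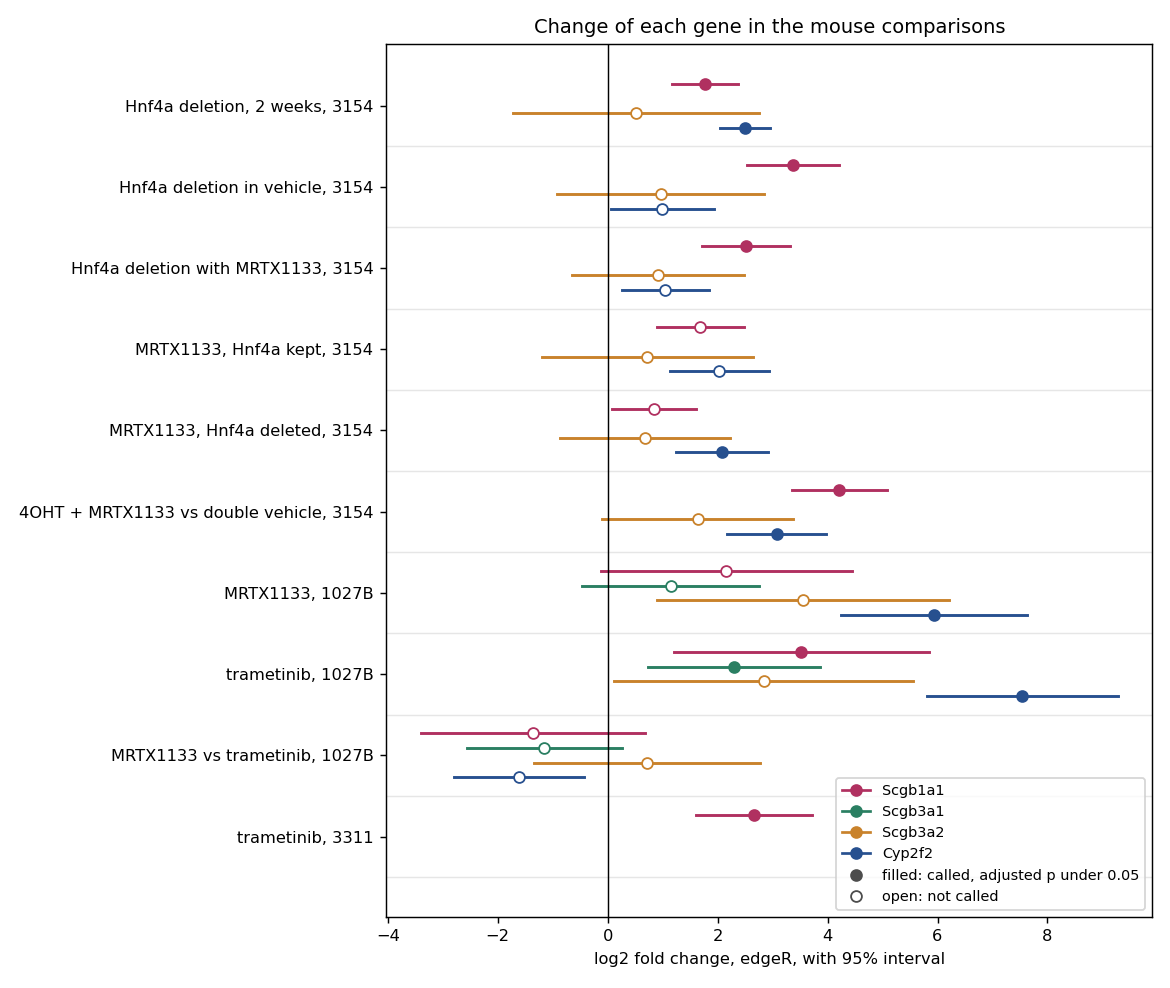
log2 fold change of each gene with its 95% interval (edgeR) in 10 mouse comparisons, filled where the adjusted p was under 0.05. Against vehicle or ethanol every point lies to the right of 0, and the widest intervals are those of Scgb3a2 and of the 1027B comparisons.

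Trametinib in 1027B organoids raised 3 of the 4 genes, and the largest change was that of Cyp2f2. In that comparison 13.5% of the 14555 genes tested were called higher and 13.2% lower. Cyp2f2, the naphthalene-activating enzyme, was 0.339 and 1.62 CPM in the vehicle libraries and 252 and 106 CPM in the trametinib libraries. The treated libraries were both far above the controls, and the fold change was 187 (log2 7.54 ± 0.729 SE, adjusted p = 0.00137, edgeR). The vehicle libraries held 7 and 30 counts, and with 1 library left out the log2 fold change ran from 6.78 to 9.05. Scgb1a1, the main club cell product, was 0.726 and 5.74 CPM with vehicle and 29.7 and 43.4 CPM with trametinib, an 11.5-fold rise (log2 3.52 ± 0.976 SE, adjusted p = 0.0382, edgeR).

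Scgb3a1 was 0.775 and 0.217 CPM in the vehicle libraries of 1027B and 2.58 and 2.43 CPM with trametinib, a 4.92-fold rise (log2 2.3 ± 0.658 SE, adjusted p = 0.0422, edgeR). Scgb3a2 was 0 and 0.433 CPM with vehicle and 0.623 and 2.43 CPM with trametinib. The groups did not overlap, but with 0 to 52 counts per library the change was not called (log2 2.84 ± 1.14 SE, adjusted p = 0.112, edgeR). In this table the vehicle counts of Cyp2f2 (7 and 30), Scgb3a1 (16 and 4) and Scgb3a2 (0 and 8) alone would not have passed the count filter. These genes were tested because inhibitor libraries were higher, so a lower call was hardly possible and their p values are a description. With the replicate number as a block, which is used as a second value in this table because same-numbered 1027B libraries deviated together, all 4 genes were called, Scgb3a2 with an adjusted p of 0.00959, while 44.9% of all genes were called in either direction. Without trametinib replicate 1 or 2, Cyp2f2 was the 1 member called. With 1 library left out the log2 fold change of Scgb1a1 ran from 2.67 to 5.67 and that of Scgb3a1 from 1.71 to 3.5. That of Scgb3a2 ran from 1.56 to 8.09. Scgb1a1 also lost its call without vehicle replicate 1, with adjusted p between 0.0969 and 0.109 over these 3 fits. Scgb3a1 also lost its call without vehicle replicate 2, with adjusted p between 0.0978 and 0.146.

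MRTX1133 raised Cyp2f2 in the same 1027B organoids, where 3.01% of all genes tested were called higher and 3.26% lower. Cyp2f2 was 74.5 and 42.2 CPM with MRTX1133, 60.9-fold above the vehicle libraries (log2 5.93 ± 0.712 SE, adjusted p = 0.0102, edgeR). With 1 library left out the log2 fold change ran from 5.16 to 7.43, the lowest being without vehicle replicate 1, where the adjusted p was 0.0512. Scgb1a1 was 4.64 and 24.1 CPM, overlapping the vehicle range (log2 2.16 ± 0.962 SE, adjusted p = 0.238, edgeR). Scgb3a1 was 1.6 and 0.598 CPM and also overlapped it (adjusted p = 0.371, edgeR). Leaving out 1 library moved the log2 fold change of Scgb1a1 between 0.56 and 4.3 and that of Scgb3a1 between 0.24 and 2.34.

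Scgb3a2 was 1.6 and 3.44 CPM with MRTX1133, above both vehicle libraries, without being called (log2 3.55 ± 1.12 SE, adjusted p = 0.119, edgeR). Leaving out 1 library moved its log2 fold change between 2.51 and 8.8. Within each replicate number the 4 genes were all higher with MRTX1133 than with vehicle. With the replicate block 3 of the 4 were called, Scgb1a1 with an adjusted p of 0.0173, Scgb3a2 with 0.00469 and Cyp2f2 as before, beside 24.1% of all genes.

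The 2 inhibitors were compared directly in 1027B at the doses used, 20 nM MRTX1133 and 10 nM trametinib, which are different agents at different doses. No gene was called higher (0%) or lower (0%) by edgeR, 2357 had an unadjusted p under 0.05, and DESeq2 called 712. Cyp2f2 was lower with MRTX1133 by a log2 fold change of -1.62 ± 0.496 SE (95% interval -2.79 to -0.44, adjusted p = 0.204, edgeR), and its ranges did not overlap. Scgb1a1 differed by -1.36 ± 0.857 SE (95% interval -3.4 to 0.68, adjusted p = 0.491, edgeR) and Scgb3a1 by -1.16 ± 0.592 SE (adjusted p = 0.392, edgeR). Scgb3a2 differed in the other direction, by 0.71 ± 0.868 SE (adjusted p = 0.747, edgeR). With the replicate block Cyp2f2 (adjusted p = 0.00755) and Scgb1a1 (adjusted p = 0.0275) were called lower with MRTX1133, among the 14.1% of all genes called in either direction.

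**Figure D3:**
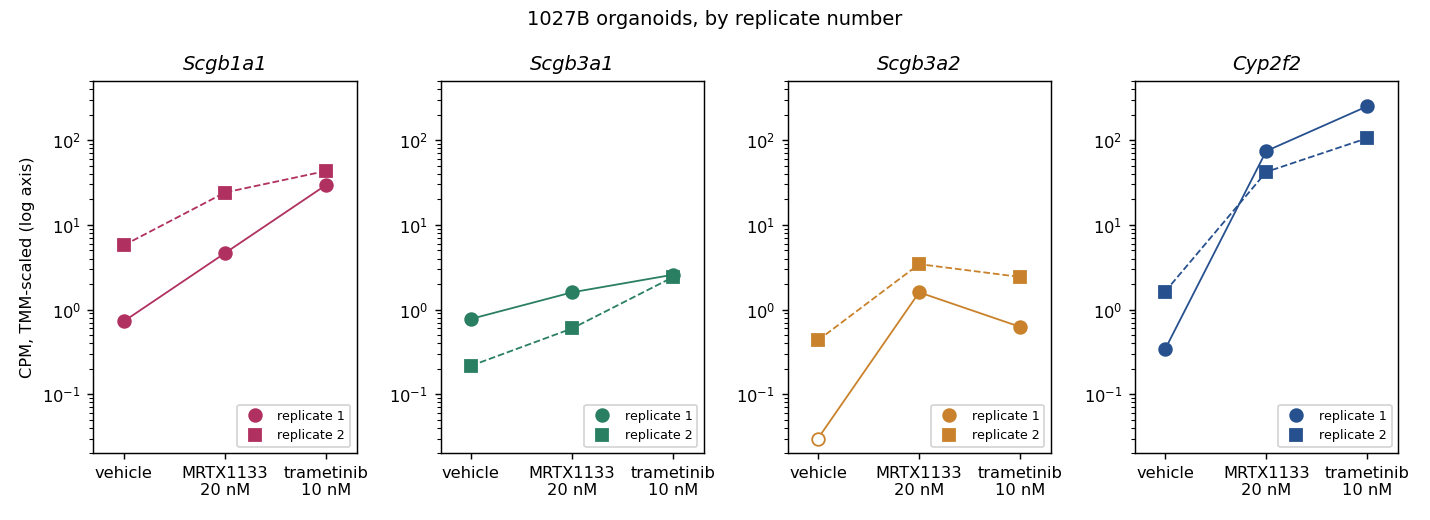
TMM-scaled CPM (log axis) of the 4 genes in the 6 libraries of 1027B organoids, with lines joining libraries of the same replicate number and an open circle at the bottom for 0 counts. Both inhibitor points of each line lie above its vehicle point, and replicate 2 is the higher one for Scgb1a1 and Scgb3a2 in all 3 groups.

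In 3311 cells Scgb1a1 was the one member with a row, and trametinib raised it from a very low level. It was 0.334 and 0.398 CPM with vehicle and 2.65 and 2.02 CPM with 50 nM trametinib. These were 9 and 10 counts against 74 and 53. The vehicle counts alone would not have passed the count filter. A lower call was therefore hardly possible, and the p value given next is a description. The rise was 6.32-fold (log2 2.66 ± 0.449 SE, adjusted p = 0.00502, edgeR), in a comparison in which 19.4% of the 15224 genes tested were called higher and 19.6% lower. Its mean with trametinib was 4.9 CPM per kb, within the range of the untreated 1027B libraries, the tables having been scaled separately.

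In the human lines SCGB3A2 was the one member with values, and it was at or near 0. It had 0 and 1 counts in the H358 vehicle libraries and 2 and 2 with trametinib, and in H1651 it had 3 and 1 counts with vehicle and 1 and 0 with trametinib. All 8 libraries were at or below 3 counts, the floor used here, so no change was detectable at this depth. Trametinib moved much of the H358 transcriptome, with 23.5% of 18972 genes called higher and 23.2% lower. In H1651 no gene was called (0% higher and 0% lower by edgeR), while 597 had an unadjusted p under 0.05 and DESeq2 called 47. In the doxycycline experiment on H1651, where 1.04% of 17351 genes were called higher and 0.386% lower and HNF4A rose from 41.5 ± 7.89 to 95.6 ± 1.73 CPM (SD, n = 2), no member had a row.

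CYP2F1, a human P450 gene of the same subfamily as Cyp2f2, was one of the club genes examined beside the members. It had 0 counts in both H358 vehicle libraries and 84 and 50 counts, 1.8 and 1.96 CPM, with trametinib. Against the floor of 3 counts per library that is at least 22.5-fold higher. CYP2F1 passed the count filter through the trametinib libraries alone, so no test is given for it. In H1651 CYP2F1 had between 1 and 2 counts in all 4 libraries of the trametinib table. The related pseudogene CYP2F2P was listed in the doxycycline table, with 6 and 4 counts without the drug and 0 and 0 with it, below the count filter.

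At 2 weeks after 4OHT, 3154 organoids expressed more Scgb1a1 and more Cyp2f2 than ethanol controls. In that comparison 4.03% of the 14492 genes tested were called higher and 5.78% lower. Scgb1a1 was 39.9 and 25.2 CPM with ethanol and 102 and 121 CPM after 4OHT, a 3.41-fold rise (log2 1.77 ± 0.245 SE, adjusted p = 0.0165, edgeR). Cyp2f2 was 6.26 and 7.64 CPM with ethanol and 38.6 and 39.7 CPM after 4OHT. Its libraries lay close together within each group, and the rise was 5.64-fold (log2 2.5 ± 0.183 SE, adjusted p = 0.00551, edgeR).

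Scgb3a1 had 0 and 1 counts in the ethanol libraries and 8 and 21 after 4OHT. It was below the count filter and so was not tested, and against the floor of 3 counts it was at least 4.49-fold higher. Scgb3a2 was 0.659 and 2.52 CPM with ethanol and 0.755 and 3.75 CPM after 4OHT, with overlapping groups and no call (log2 0.52 ± 0.903 SE, adjusted p = 0.733, edgeR). Replicate 2 was the higher library for Scgb3a2 in both groups. Without 4OHT replicate 2 the log2 fold change of Scgb1a1 was 1.64 with an adjusted p of 0.0583, and Cyp2f2 alone was called.

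In the 48-hour experiment on 3154 organoids, Hnf4a deletion raised Scgb1a1 with or without MRTX1133. In vehicle 15.3% of the 15458 genes tested were called higher and 15.7% lower. There Scgb1a1 went from 33.6 and 68.5 CPM with ethanol to 425 and 632 CPM with 4OHT, a 10.4-fold rise (log2 3.37 ± 0.362 SE, adjusted p = 0.000713, edgeR). Cyp2f2 was 1.6 and 1.3 CPM with ethanol and 2.24 and 3.57 CPM with 4OHT, without overlap and without a call (log2 0.99 ± 0.405 SE, adjusted p = 0.0981, edgeR). Scgb3a2 was 0.0421 and 0.336 CPM with ethanol and 0.228 and 0.536 CPM with 4OHT, from 1 to 12 counts per library (adjusted p = 0.406, edgeR).

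With MRTX1133 present, 13.2% of genes were called higher after deletion and 14.5% lower. Scgb1a1 was 137 and 192 CPM with ethanol and 936 and 953 CPM with 4OHT, a 5.75-fold rise (log2 2.52 ± 0.348 SE, adjusted p = 0.00183, edgeR). Cyp2f2 was 7.96 and 3.86 CPM with ethanol and 12.9 and 11.6 CPM with 4OHT, just short of a call (log2 1.05 ± 0.342 SE, adjusted p = 0.0539, edgeR). At 2 weeks the fold change of Cyp2f2 after deletion was thus 5.64 and that of Scgb1a1 3.41, and in the vehicle arms of the 48-hour experiment they were 1.99 and 10.4. The difference between the experiments was not tested.

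With MRTX1133 at 3 nM while Hnf4a was present, edgeR called 0.317% of the genes tested higher and 0.0323% lower, 54 genes in all, and DESeq2 called 330. No member was among them, although both Scgb1a1 (log2 1.69 ± 0.34 SE, adjusted p = 0.105, edgeR) and Cyp2f2 (log2 2.03 ± 0.391 SE, adjusted p = 0.0918, edgeR) lay above both control libraries. DESeq2 called both (adjusted p = 0.000105 for Scgb1a1 and 0.000245 for Cyp2f2). With the replicate number as a block edgeR also called Scgb1a1 (adjusted p = 0.025), although these numbers were not taken as pairs in this table. Leaving out 1 library moved its log2 fold change between 1.26 and 2.29. After Hnf4a deletion MRTX1133 raised Cyp2f2 4.24-fold, from 2.24 and 3.57 to 12.9 and 11.6 CPM (log2 2.08 ± 0.363 SE, adjusted p = 0.0263, edgeR), in a comparison with 2.1% of genes called higher and 2.54% lower. That call was lost when any 1 of the 4 libraries concerned was left out, 4OHT with vehicle replicate 1 or 2 and 4OHT with MRTX1133 replicate 1 or 2, with adjusted p between 0.115 and 0.26. Scgb1a1 went from 425 and 632 to 936 and 953 CPM, a 1.79-fold difference that was not called (log2 0.84 ± 0.331 SE, adjusted p = 0.201, edgeR).

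Whether MRTX1133 acted differently after deletion was tested as an interaction, in which no gene was called (0% higher and 0% lower by edgeR). There 1150 genes had an unadjusted p under 0.05, and DESeq2 called 36. The interaction of Cyp2f2 was 0.06 ± 0.547 SE on the log2 scale (95% interval -1.2 to 1.32) and that of Scgb1a1 was -0.85 ± 0.468 SE (95% interval -1.93 to 0.23), with adjusted p of 1.00 and 0.785 (edgeR). These intervals leave room for differences of more than 1 on the log2 scale in either gene.

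Against the double vehicle, organoids given both 4OHT and MRTX1133 had the largest Scgb1a1 change of the 3154 comparisons. Its rise was 18.5-fold (log2 4.21 ± 0.376 SE, adjusted p = 0.000171, edgeR), and Cyp2f2 rose 8.44-fold (log2 3.08 ± 0.39 SE, adjusted p = 0.000697, edgeR). Scgb3a2, with 16 counts in both treated libraries against 1 and 8, was not called (log2 1.64 ± 0.754 SE, adjusted p = 0.115, edgeR). In this comparison 21% of genes were called higher and 21.3% lower.

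Other secretoglobins were scarce. In mouse the single further family member with a row, Scgb1c1, was below the count filter in all 3 tables that listed it. In the human tables SCGB2B2 and the pseudogene SCGB1B2P were tested in 3 comparisons and not called in any, with group means of SCGB2B2 up to 1.51 CPM.

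**Figure D4:**
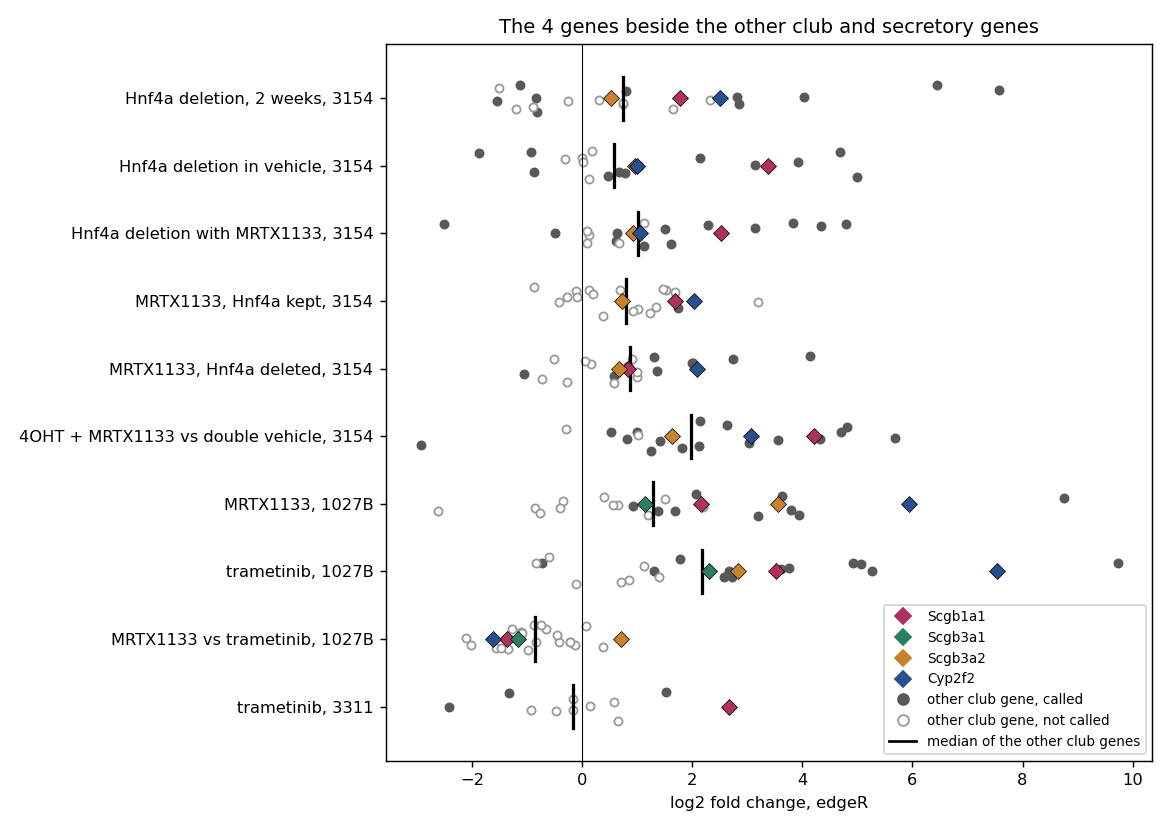
log2 fold change (edgeR) of the 4 genes (diamonds) and of the other club and secretory airway genes tested (circles, filled where called) in 10 mouse comparisons, with the median of the other club genes as a black bar. The medians lie above 0 except in 3311 and in MRTX1133 against trametinib, and Cyp2f2 lies at the far end with Cckar in 1027B.

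Other genes of club and secretory airway cells were read from a list of 27 mouse genes. Some were near the floor in controls and passed the count filter through treated libraries, so a lower call was hardly possible for them. This limits the counts and medians of the list given below. In 1027B with trametinib 12 of the 20 tested were called higher and 1 lower, with a median log2 fold change of 2.17 beside -0.01 over all genes, of which 13.5% were called higher and 13.2% lower. Cckar, the cholecystokinin A receptor, had 0 counts in both vehicle libraries and was at least 31.7-fold higher against the floor. It was 1 of the 12, and it passed the count filter through the inhibitor libraries alone. Upk3a, a uroplakin that marks a subset of club cells, rose by 5.27 on the log2 scale, the carboxylesterase Ces1d by 5.06 and the carbonyl reductase Cbr2 by 4.92 (adjusted p = 0.001, 0.0056 and 0.0058, edgeR). Over fits with 1 library left out these ran from 4.58 to 6.51, from 4.07 to 8.77 and from 3.99 to 7.65. With MRTX1133, 9 of the 20 were called higher and none lower (median 1.28), beside 3.01% and 3.26% of all genes, led again by Cckar, Ces1d (3.94), Upk3a (3.8) and Cbr2 (3.63). Leaving out 1 library moved Ces1d between 2.96 and 7.65, Upk3a between 3.11 and 5.03 and Cbr2 between 2.71 and 6.36. The summed level of the list did not separate from vehicle in the same way, with 4235 and 5828 CPM in vehicle, 5062 and 5542 CPM with trametinib and 3398 and 4707 CPM with MRTX1133, all overlapping vehicle.

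In 3154 organoids members of the list moved in both directions. At 2 weeks after deletion 6 of 19 tested were called higher and 4 lower (median 0.74 beside 0.02 over all genes), while 4.03% and 5.78% of all genes were. Ltf, Bpifa1 and Lypd2 were among the 6. They were at or under the floor in ethanol and passed the count filter through the 4OHT libraries, so a lower call was hardly possible for them. The antimicrobial proteins Ltf and Bpifa1, at or under the floor in ethanol, were at least 68.7-fold and 32-fold higher, Gabrp rose by 4.02 on the log2 scale and Lypd2 was at least 4.94-fold higher, and the selenium-binding protein Selenbp1 fell by 1.54 on the log2 scale. The summed level of the list moved the other way from its median, from 3813 and 4607 CPM with ethanol to 2455 and 2665 CPM after 4OHT. Upk3a (log2 -0.89, adjusted p = 0.072) and Ces1d (-1.51, adjusted p = 0.085, edgeR) lay below ethanol without being called. In the 48-hour vehicle arms 9 of 18 were called higher and 3 lower (median 0.57), beside 15.3% and 15.7% of all genes, with haptoglobin, Hp, up by 4.68 and the GABA receptor subunit Gabrp by 3.4 on the log2 scale. Ces1d was called lower there (log2 -0.92), and the list summed to 4434 and 4481 CPM with ethanol and to 2446 and 2607 CPM with 4OHT. For deletion with MRTX1133 the counts were 11 higher and 2 lower (median 1.01), beside 13.2% and 14.5% of all genes. For MRTX1133 after deletion they were 8 and 1 (median 0.87), beside 2.1% and 2.54%. With Hnf4a present MRTX1133 gave 1 and 0 (median 0.8), beside 0.317% and 0.0323%, and both treatments together gave 15 and 1 (median 1.98), beside 21% and 21.3%. The list's sum was lower in both comparisons with 4OHT and MRTX1133, at 2732 and 2919 CPM, than with ethanol and MRTX1133 (3939 and 3963 CPM) or double vehicle.

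In 3311 cells 1 of 10 club genes tested was called higher and 2 lower (median -0.16), beside 19.4% and 19.6% of all genes, the detoxifying aldehyde dehydrogenase Aldh1a1 rising by 1.52 and the mucin Muc5b falling by 2.41 on the log2 scale. With 1 library left out the change of Aldh1a1 ran from 0.43 to 2.13, with an adjusted p up to 0.238. In H358 6 of 13 tested from a human list of 26 were called higher and 4 lower (median 0.52 beside 0.02 over all genes), while 23.5% and 23.2% of all genes were. CYP2F1, ALDH1A1 and UPK3A were among the 6. They were at the floor in vehicle and passed the count filter through the trametinib libraries, so a lower call was hardly possible for them. ALDH1A1 and UPK3A were at least 6.69-fold and 3.93-fold higher against the floor, and CYP4B1, a further P450 of airway cells, rose by 3.6, while MUC5B fell by 3.35 and the tight junction gene CLDN10 fell by 3.1 on the log2 scale. In H1651, 0 of 12 were called with trametinib, and 1 of 13 with doxycycline, ALDH1A1 (0.57). In 1027B the replicate block gave 13 higher and 2 lower with trametinib and 12 higher and 3 lower with MRTX1133, where it called 44.9% and 24.1% of all genes in either direction.

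Naphthalene metabolism was read from 12 genes around Cyp2f2, including Por, the reductase that feeds electrons to P450 enzymes, and the glutathione enzymes that clear the epoxide. In 1027B with trametinib, where 13.5% of all genes were called higher and 13.2% lower, 3 of 9 tested were called higher and none lower, among them the glutathione transferase Gsta3 (log2 1.31, adjusted p = 0.0038, edgeR) and Por (0.4, adjusted p = 0.049), whose call was lost with any 1 of the 4 libraries left out (adjusted p from 0.0565 to 0.211). With trametinib in 3311 none of 8 tested was called higher and 2 lower (median -0.32), beside 19.4% and 19.6% of all genes, and in H358 4 of 8 were called higher and 2 lower, beside 23.5% and 23.2%. In 3154 after deletion 4 of 10 were called lower and none higher at 2 weeks, where Cyp2f2 rose and 4.03% of all genes were called higher and 5.78% lower. In the 48-hour vehicle arms 5 of 10 were called lower and none higher, beside 15.7% and 15.3% of all genes. Gstm1 fell by 1.36 at 2 weeks and fell by 1.4 in the 48-hour experiment on the log2 scale, and Gsta3 by 0.82 and by 0.88.

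Of the P450 genes near Cyp2f2 on chromosome 7, most had no row or did not pass the count filter. In 3154 organoids Cyp2s1 fell by 2.88 on the log2 scale at 2 weeks, from 1154 to 157 CPM, while Cyp2f2 rose there. In the 48-hour vehicle arms Cyp2s1 fell by 2.95 on that scale. In 1027B, where Cyp2f2 rose with trametinib, Cyp2s1 was 540 and 965 CPM with vehicle and 631 and 788 CPM with trametinib, with overlapping groups and no call. In 3311, where Cyp2f2 had no row, Cyp2s1 was called lower with trametinib (log2 -1.42, adjusted p = 0.0162, edgeR). Cyp2b10 was called higher for deletion with MRTX1133 (log2 2.43, adjusted p = 0.0011, edgeR). It was also called for MRTX1133 after deletion (log2 1.82, adjusted p = 0.02, edgeR), a call lost with any 1 of the 4 libraries left out (adjusted p from 0.103 to 0.242).

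Known or proposed regulators of secretoglobin genes were read from 19 genes. With trametinib 4 of 18 were called higher and 3 lower in 1027B, beside 13.5% and 13.2% of all genes. Foxa2 (log2 0.48), Nkx2-1 (0.43) and Cebpb (1.18) were on the higher side. Elf3, an epithelial ETS factor, fell by 1.0 and the C/EBP factor Cebpa by 0.87 on the log2 scale. The call of Nkx2-1 was lost with any 1 of the 4 libraries left out (adjusted p from 0.0611 to 0.076). In 3154 after deletion in vehicle 3 of 18 were called higher and 3 lower, shares near those of all genes (15.3% and 15.7%). Foxa2 rose by 0.68 and Foxa1 by 0.42 (adjusted p = 0.0383 for Foxa1, edgeR). Elf3 fell by 1.98, Elf5 by 1.52 and Cebpb by 1.14 on the log2 scale. Deletion with MRTX1133 gave 1 higher and 4 lower of 18, beside 13.2% and 14.5% of all genes, Cebpb falling by 0.88. At 2 weeks none of 18 was called higher and 2 lower, beside 4.03% and 5.78%. Cebpb fell by 0.725 and Elf3 by 0.97 there. In H358, where SCGB3A2 stayed at the floor, FOXA2 fell by 3.97 on the log2 scale, from 82.8 to 5.41 CPM, while FOXA1 rose by 1.3 and ELF3 by 1.55. Nkx2-1 itself was not called in any 3154 comparison.

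Of the receptors and partners listed for secretoglobins, 12 genes, the endocytic receptor Lrp2 rose by 4.25 on the log2 scale in 3311 with trametinib, where 4 of 9 tested were called higher and 2 lower, beside 19.4% and 19.6% of all genes. In 1027B 1 of 9 was called higher and 1 lower with trametinib, shares close to the 13.5% and 13.2% of all genes, Il6st, the shared cytokine receptor chain, rising by 1.24 and Lifr falling by 1.96. In the 48-hour 3154 vehicle arms 2 of 9 were called higher and 1 lower after deletion, beside 15.3% and 15.7% of all genes, the proteoglycan Sdc1 rising by 0.47.

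Markers of other cell types moved in some of the same comparisons, and their part in the results was not tested. The alveolar type 1 list of 7 genes (all with a row in 1027B, 6 in the 48-hour 3154 table) summed to 1397 and 1652 CPM in 1027B with vehicle and to 2630 and 3439 CPM with trametinib, and in 3154 to 1545 and 1660 CPM with double vehicle and to 4144 and 4320 CPM with both treatments. With MRTX1133 in 1027B the alveolar type 1 list summed to 1613 and 2248 CPM, overlapping vehicle. The 9 alveolar type 2 genes summed to between 6898 and 10993 CPM in 1027B with vehicle and between 2637 and 3111 CPM with trametinib. With MRTX1133 they summed there to between 3308 and 5007 CPM. In the 48-hour 3154 table they summed to between 6914 and 9304 CPM with double vehicle, 11454 and 14300 CPM with ethanol and MRTX1133, 8652 and 9903 CPM with 4OHT and vehicle, and 13203 and 17567 CPM with both treatments. The goblet list, 4 of 6 with a row in 1027B, summed there to 1275 and 1447 CPM with vehicle and to 590.3 and 649 CPM with trametinib. With MRTX1133 it summed to 437 and 735 CPM. In 1027B the gastric and hepatic list, 10 of 13 with a row, summed to 2690 and 3751 CPM with vehicle, to 334 and 373 CPM with trametinib and to 572 and 617 CPM with MRTX1133. In 3311 the alveolar type 2 list, 6 of 9 with a row, summed to between 4466 and 5205 CPM with vehicle and between 598 and 695 CPM with trametinib, and the goblet list, 4 of 6 with a row, to 194 and 199.5 CPM with vehicle and 45.6 and 52.9 CPM with trametinib. There the alveolar type 1 list summed to between 217 and 230 CPM with vehicle and between 973 and 1345 CPM with trametinib. Ciliated genes, of which 3 or 4 of 7 had a row, summed to at most 6.86 CPM in any mouse library, but were higher in the treated groups. They went from 1.09 and 1.68 CPM with double vehicle to 5.43 and 6.86 CPM with both treatments in 3154, where 3 of 4 tested were called higher, and from 1.16 and 1.35 to 2.63 and 4.62 CPM with trametinib in 1027B. Blood and immune genes and genes of fibroblasts and endothelium summed to at most 8.28 and 2.09 CPM in 1027B, where 4 of 7 and 3 of 7 had a row. In the 2-week 3154 table blood and immune genes summed to 18.6 and 44.7 CPM with ethanol and to 10.1 and 13.5 CPM after 4OHT. In H358 ciliated genes summed to 48.3 and 55.1 CPM with vehicle and to 79.3 and 99.7 CPM with trametinib. Alveolar type 1 genes summed there to 430 and 439 against 922 and 981 CPM, and basal genes to 90.8 and 107 against 21.9 and 27.3 CPM. Genes of fibroblasts and endothelium summed to 47.2 and 48.9 against 140 and 168 CPM.

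How far the 4 genes varied together is given as a description, over libraries that share tables and treatments, after subtracting each table's mean from the log2 CPM. Over 18 libraries of 3 tables Pearson's r was 0.75 between Scgb1a1 and Cyp2f2, 0.69 between Scgb1a1 and Scgb3a2 and 0.67 between Scgb3a2 and Cyp2f2. For Scgb3a1, tested in 1027B alone, r over 6 libraries was 0.74 with Cyp2f2, 0.44 with Scgb1a1 and 0.26 with Scgb3a2.

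The genes whose pattern was most like each member were ranked by the same r among genes tested in all 4 mouse tables with a mean of at least 10 CPM (9443 genes for Scgb1a1 and 9444 for the others). For Scgb1a1, over 22 libraries, these were Spop (r = 0.91), Rtn4rl1 (0.91), Atoh8 (0.91), Synpo (0.91) and Fhl1 (0.9), with r of 0.94, 0.94, 0.95, 0.97 and 0.98 over the 8 libraries of the 48-hour 3154 table. For Cyp2f2, over 18 libraries, they were Arhgef26, Lrpap1, Lgi3, Cbr2 and Clstn1 (r from 0.94 to 0.95), Cbr2 being also on the club list. For Scgb3a2 they were Pdlim3 (0.86), Gm12940 (0.82), Sall2 (0.82), the alveolar type 1 gene Ager (0.79) and Fhl1 (0.77). For Scgb3a1 the 5 were Zfp865, Tm7sf3, Hyal2, Rab3ip and Grhl1 (all r = 0.99), over 6 libraries, where many genes reach such values.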

How the data were processed

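RNA sequencing was done on 22 mouse and 12 human libraries. Per the labels, poly(A) RNA was made into strand-marking libraries and read from both ends. Per the submitters' processing notes, cutadapt 3.5, STAR 2.7.6a and featureCounts 1.6.3 were used with the builds mm10, mm39 and hg38, and which mouse build belongs to which table is not given in the sources used here. The authors deposited 7 tables of raw counts per Ensembl gene. One table has columns that name no cell line, and its own name was what tied them to the 3311 samples.

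Fits were made table by table in edgeR 4.0.16 (R 4.3.3), with filterByExpr, TMM scaling and the quasi-likelihood F-test, p values being adjusted by Benjamini-Hochberg over all genes tested. All groups of a table shared 1 fit. The standard error is the log2 fold change divided by the root of F. A group at or below 3 counts in every library was taken as at the floor, which covers counting error only. Permuting 2 against 2 libraries cannot give an exact p under 0.05. Each value was recomputed with the replicate number as a block, with each library left out, on the 2 groups alone, without the count filter, with at least 10 counts in every library, with upper-quartile or RLE factors, and in DESeq2 1.42.0. The fits were tested on simulated counts. Replicates differed by more than counting noise in every group (chi-square per degree of freedom at least 5.9).

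In the 1027B table the gene-wise difference of replicate 1 from replicate 2 correlated across the 3 pairs of groups (r = 0.24, 0.37 and 0.41), so its numbers were taken as pairs. This comes from the data and not from the labels.

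The 4 members, the gene lists and the tests were chosen with earlier results of these data known. Members are named in every comparison, and of each list up to 4 called genes with the largest change, from which a selection is printed. Nkx2-1, Foxa1, Foxa2 and Hnf4a are named where a result is set beside them. Genes like a member are the 5 with the highest r of log2 CPM (prior count 2), over the tables in which that member was tested. Some genes outside that rule were singled out after their values were seen: CYP2F2P, Por, Sdc1, Upk3a, Ces1d and Selenbp1 in the 3154 deletions, MUC5B and CLDN10 in H358 and Cyp2s1 in 1027B. One allele shared by all mouse cultures is not reported here.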

Additional observations from a re-analysis of the deposited data

Results flagged for a closer look

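No group had the 4 to 10 libraries that a search for single outlying libraries needs. Some genes named beside the members moved in opposite directions under the same contrast in different cultures. Every treated library lay on 1 side of its controls in each. These differences were not tested, and the doses of trametinib differed.

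With trametinib, Foxa2 rose in 1027B (log2 0.48) and fell in H358 (-3.97), a gap of 4.46 on the log2 scale. Elf3 rose in H358 (1.55) and fell in 3311 (-0.98) and in 1027B (-1.0), with gaps of 2.53 and 2.55. Cebpb rose in 1027B (1.18) and fell in 3311 (-1.22) and H358 (-0.95), with gaps of 2.4 and 2.13, and the gap to H1651, where CEBPB was not called, was 1.64. Gsta3 rose in 1027B (1.31) and lay below vehicle in 3311 without being called (-0.93), a gap of 2.23. Selenbp1 rose in H358 (1.62) and fell in 3311 (-1.33), a gap of 2.94.

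After Hnf4a deletion in 3154, Aldh1a1 was higher in the vehicle arms of the 48-hour experiment (log2 0.78) and lower at 2 weeks (-0.84), a gap of 1.61. The 4 members themselves showed no such opposite movement, but for some of their values a lower call was hardly possible.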

How the results depend on the processing

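Over the 14 comparisons, the number of members called kept within 1.5 times its value in 101 of 123 recomputations. These include 3 human comparisons in which no member passed the count filter, so 0 called was fixed there wherever that filter applied. At 2 weeks it was 2, and between 1 and 2 when 1 library was left out. For trametinib in 1027B it was 3, 1 when at least 10 counts were asked of every library, which leaves 1 member tested, and between 1 and 3 when 1 library was left out. For MRTX1133 in 1027B it was 1, 2 with DESeq2, 0 with at least 10 counts, 3 with the replicate block and between 0 and 1 with 1 library left out, and for MRTX1133 against trametinib 0, and 2 with the replicate block. For MRTX1133 in 3154 with Hnf4a it was 0, 2 with DESeq2, 1 with the replicate block and between 0 and 1 with 1 library left out. After deletion it was 1, 2 in a fit of the 2 groups alone and 0 with any 1 of their libraries left out. For deletion with MRTX1133 it was 1, and 2 with upper-quartile factors, DESeq2, the replicate block or the 2 groups alone, where Cyp2f2 was added, and between 1 and 2 with 1 library left out. The cause of these shifts was not tested.

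Among the members' log2 fold changes, 212 values under other settings held no reversal, and 11 of 148 with 1 library left out reversed. With 1 library left out, Scgb3a2 ran from -1.04 (without 4OHT replicate 2) to 1.76 at 2 weeks, and was -0.18 without ethanol replicate 1. For MRTX1133 with Hnf4a it ran from -0.093 (without vehicle replicate 1) to 2.76. The interaction ran from -2.09 to 0.77 for Scgb3a2 and from -0.37 to 0.70 for Cyp2f2. An arm left with 1 library is assumed to vary like the others. Of the other named genes, 129 of 460 values with 1 library left out and 24 of 741 under other settings lost their call.

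Outside 1027B the replicate numbers were not taken as pairs, since the 48-hour 3154 table gave correlations from -0.25 to 0.55 and the 2-group tables hold 1 pair of groups each (0.44 at 2 weeks, 0.62 and 0.31 for trametinib in H1651 and H358, 0.32 with doxycycline, 0.12 in 3311). With the block the genes called went from 1421 to 4563 at 2 weeks, from 247 to 3048 with doxycycline, from 0 to 1881 in H1651 with trametinib and, in 1027B, from 3880 to 6540, from 913 to 3515 and from 0 to 2050. DESeq2 called 2311 at 2 weeks, 451 with doxycycline, 1636 for MRTX1133 in 1027B, 330 for MRTX1133 with Hnf4a (54 by edgeR) and 1342 after deletion (717 by edgeR). Low counts limit Scgb3a1 and Scgb3a2 most. Levels per length with a length from the tables were not run, since those used here hold no length column.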
